A study of Mus musculus with 2 samples.

Results

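A divergent gene pair is 2 protein-coding genes on opposite strands whose starts lie close together and point away from each other, so that both are read outward from 1 stretch of promoter DNA. Of the 44058 peaks of IRF4 in the optimal list from CH12.LX cells, 613 had a summit within 1 kb of both starts of such a pair, with the starts at most 1 kb apart. These 613 peaks are set here against the 6708 peaks with a summit no more than 1 kb from the start of a single gene, with no other protein-coding start near it. A further 432 promoter peaks belonged to neither class, and 36294 peaks lay more than 1 kb from any protein-coding start. CH12.LX is an immortalized mouse B-cell lymphoma line from 1 donor of the strain B10.H-2aH-4bp/Wts, and the data are ChIP-seq with an IRF4 antibody. There was 1 group of 2 biological replicates and no treatment. Nothing says that they came from separate cultures, and their spread may be technical. A control experiment that the labels name was not used here. The files hold peak lists and no read numbers, and depth is therefore unknown.

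Many divergent pairs join housekeeping genes, such as those for DNA repair, mitochondria and RNA processing, and their shared promoters are usually rich in CpG and poor in TATA boxes. IRF4 is an interferon regulatory factor of lymphocytes that steers B cells towards class switching and the plasma cell fate. It binds the GAAA repeats of interferon-stimulated response elements (ISRE), and binds composite ETS-IRF elements (EICE) together with the ETS-family factors PU.1 or Spi-B.

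The sequences below carry the IRF motifs found at these peaks. Sequence came from the RefSeq promoter table (GRCm38.p6), which runs from 250 bases before each start to 50 after it, and the 101 bases around a summit were fully covered for 286 of the 613 peaks (46.7%). In these windows, both strands were searched for the EICE (GGAANNGAAA), the ISRE core (GAAANNGAAA) and a strong ETS site (CCGGAAG). The EICE and the ISRE core end in the same letters but differ at their second letter, and were counted apart. An EICE or an ISRE core lay in 9 of the 286 windows, and all 9 are printed 5′ to 3′ on the plus strand, strongest peak first, with capitals marking matches to any of the 3 motifs. They lie at chr19:34640733-34640833, chr6:134035633-134035733, chr14:56575466-56575566, chr13:97137871-97137971, chr13:112927486-112927586, chr11:97703192-97703292, chr11:120467623-120467723, chr17:36042878-36042978 and chr7:120677477-120677577, in the order of the lines.
Ifit1bl2/Ifit1: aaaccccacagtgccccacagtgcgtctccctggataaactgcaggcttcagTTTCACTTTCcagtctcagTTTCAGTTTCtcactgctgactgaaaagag
Gm46977/Etv6: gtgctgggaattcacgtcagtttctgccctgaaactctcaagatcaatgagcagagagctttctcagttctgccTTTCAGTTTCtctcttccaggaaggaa
Cenpj/Parp4: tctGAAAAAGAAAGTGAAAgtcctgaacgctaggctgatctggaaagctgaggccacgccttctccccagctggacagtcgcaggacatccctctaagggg
Nsa2/Gfm2: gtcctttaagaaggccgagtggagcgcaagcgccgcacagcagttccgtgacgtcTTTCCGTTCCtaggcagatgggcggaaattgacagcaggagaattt
Mtrex/Dhx29: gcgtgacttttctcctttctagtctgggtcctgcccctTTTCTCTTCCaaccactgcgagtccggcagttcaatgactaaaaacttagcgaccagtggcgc
Pcgf2/Psmb3: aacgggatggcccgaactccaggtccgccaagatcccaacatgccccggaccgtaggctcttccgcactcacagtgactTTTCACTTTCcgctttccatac
Arl16/Hgs: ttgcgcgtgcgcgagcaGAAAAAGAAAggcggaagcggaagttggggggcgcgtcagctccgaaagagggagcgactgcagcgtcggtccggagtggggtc
H2-T22/Gm6034: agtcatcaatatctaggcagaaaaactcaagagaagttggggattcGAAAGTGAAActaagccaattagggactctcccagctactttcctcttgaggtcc
Pdzd9/Mosmo: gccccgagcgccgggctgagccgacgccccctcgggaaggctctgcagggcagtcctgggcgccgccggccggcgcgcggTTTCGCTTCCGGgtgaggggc

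The 3 windows at Nsa2/Gfm2, Mtrex/Dhx29 and Pdzd9/Mosmo held an EICE, and the other 6 an ISRE core. In the Pdzd9/Mosmo window the EICE overlaps a strong ETS site. The windows of Ptcd1/Cpsf4 (152.0), Eif3k/Map4k1 (134.6), Srsf11/Lrrc40 (130.7) and Rps6kb1/Tubd1 (122.6) held neither an IRF motif nor a strong ETS site and are not printed. Another 2 strong windows without an IRF motif are given for contrast, both picked with an ETS site, at chr11:58330291-58330391 and chr7:27228582-27228682.
Zfp672/Sh3bp5l: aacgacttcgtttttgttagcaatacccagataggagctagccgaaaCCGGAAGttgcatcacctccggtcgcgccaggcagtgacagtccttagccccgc
Itpkc/Coq8b: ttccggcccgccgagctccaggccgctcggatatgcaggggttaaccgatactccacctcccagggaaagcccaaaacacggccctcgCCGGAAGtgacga

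Divergent pairs carried an IRF4 summit more often than single genes. By the RefSeq gene records, 745 pairs with 1482 genes met the rule on chromosomes 1 to 19 and X, with a median of 101 bp between their starts. A summit lay within 1 kb of both starts in 476 of the 745 pairs (63.9%, Wilson 95% interval 60.4 to 67.3). It lay within 1 kb of the start in 5263 of 18902 single genes (27.8%, 27.2 to 28.5), and in 31.9% of all 21318 protein-coding genes with a start. The difference between pairs and single genes was 36.0 percentage points (Newcombe interval 32.5 to 39.5). From the strongest peaks of replicate 1 alone it was 36.6 points, and from those of replicate 2 alone 38.4 points. With the genes of a pair counted singly it was 36.7 points. Promoters are not replicates of a condition, so these intervals cover counting error only and no p-value is given.

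The pairs also had richer CpG content, which moved with binding in both classes. The median observed to expected CpG ratio was 0.831 at pair promoters and 0.523 at single-gene promoters. In single genes it was 0.779 where a summit was present and 0.353 where none was. Bound pairs differed less from unbound pairs, at 0.852 against 0.798. Within the 4 quartile groups of the CpG ratio of all coding promoters, the share of pairs with a summit was higher than that of single genes in each. In the lowest quartile 26.7% of 15 pairs had a summit, against 5.39% of 4227 single genes. In the second the shares were 55.2% of 87 pairs and 18.9% of 4054 single genes. In the third they were 61.5% of 244 pairs and 43.4% of 3624 single genes, and in the highest 71.2% of 340 pairs and 50.4% of 3327 single genes. The 4 differences ran from 18.1 to 36.2 points, and each interval lay above 0. Among promoters in the upper 2 quartiles together the difference was 20.4 points (16.3 to 24.2), smaller than over all promoters. Whether transcription of the genes moved with binding was not tested, as no expression data were used.

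**Figure D1:**
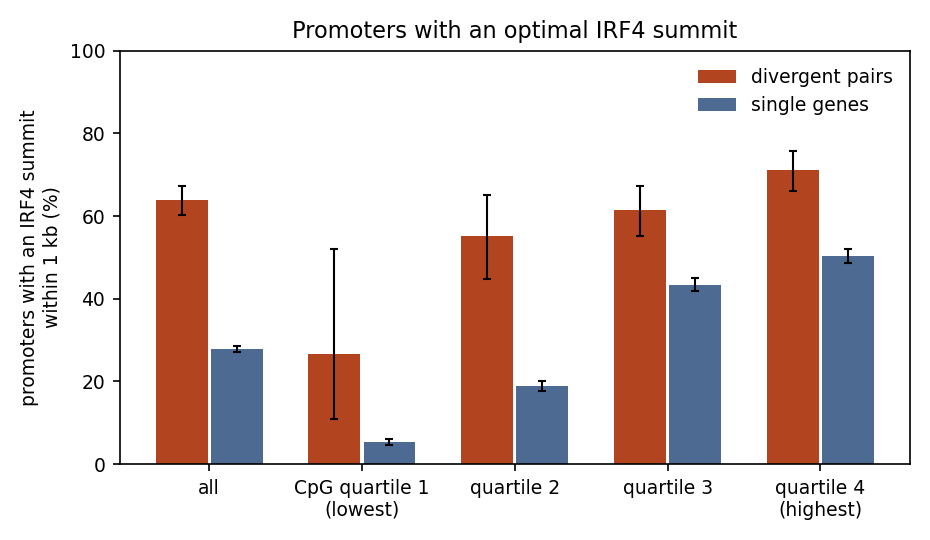
Percent of promoters with an optimal IRF4 summit within 1 kb, for divergent pairs (left bars) and single genes (right bars), over all promoters and within quartiles of the CpG ratio; bars are shares and lines are 95% Wilson intervals. The pairs' bar is the taller in all 5 places, at 63.9% against 27.8% over all promoters, and the gap is 20.7 points in the highest quartile.

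Occupancy did not differ with the distance between the starts beyond its intervals. With starts 1 to 50 bp apart 130 of 194 pairs had a summit (67.0%, 60.1 to 73.2), and with starts 501 to 1000 bp apart 37 of 64 had one (57.8%, 45.6 to 69.1). The 4 bins between lay at 58.2% to 66.5%, and the intervals of all 6 bins overlap. The median signal per bin was 32.5 to 37.4, with no steady order. On chromosome X 4 of 17 pairs had a summit (23.5%), against 8.77% of its 889 single genes, and on chromosome 11 46 of 57 pairs (80.7%), against 41.5% of its 1367 single genes.

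Pairs without an optimal summit often had one in the relaxed list. Of the 269 such pairs, 216 (80.3%) had a summit of the relaxed pooled list within 1 kb of both starts, against 4882 of 13639 single genes without an optimal summit (35.8%). The relaxed lists hold 300000 pooled peaks and were made to include background, so such a summit is no call.

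The signal of the pair peaks was much like that of the single-gene peaks. Signal is the peak caller's own value, in units that are not stated. Pooled signal had a median of 36.0 at pair peaks (quartiles 25.9 and 52.4, range 6.95 to 197.2), against 37.6 at single-gene peaks (27.4 and 53.3, range 6.94 to 352.6). Replicate 1 had a median of 16.8 at the 495 pair peaks matched there and 16.8 at 5629 single-gene peaks. Replicate 2 had a median of 24.3 at 545 pair peaks and 24.4 at 6119 single-gene peaks. The mean log2 signal differed by -0.05 in the pooled values (Welch 95% interval over peaks -0.12 to 0.02), by -0.05 in replicate 1 (-0.12 to 0.03) and by -0.03 in replicate 2 (-0.10 to 0.05). All 3 intervals include 0, and they leave out a mean pooled difference larger than 0.12 on the log2 scale in the lower direction. High signals were counted in both classes. A signal of 100 or more was reached by 23 pair peaks (3.75%) and 343 single-gene peaks (5.11%), a difference whose interval, -2.72 to 0.52 points, includes 0. None of the 613 pair peaks reached 250, which allows a share of up to 0.489%, against 20 single-gene peaks (0.298%).

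A fit with chromosome and distance to the nearer start moved the signal difference to -0.11 (-0.18 to -0.05). Pair summits lay nearer to a start, where signal was higher in both classes. Within 100 bp of the nearer start the medians were 40.5 for 336 pair peaks and 42.1 for 2533 single-gene peaks, a log2 difference of -0.04 (-0.13 to 0.04). From 101 to 300 bp they were 30.7 for 175 pair peaks and 35.5 for 1881 single-gene peaks, and here the log2 difference, -0.22 (-0.35 to -0.09), did not include 0. From 301 to 1000 bp they were 33.0 for 102 pair peaks and 34.4 for 2294 single-gene peaks, a log2 difference of -0.06 (-0.24 to 0.13).

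**Figure D2:**
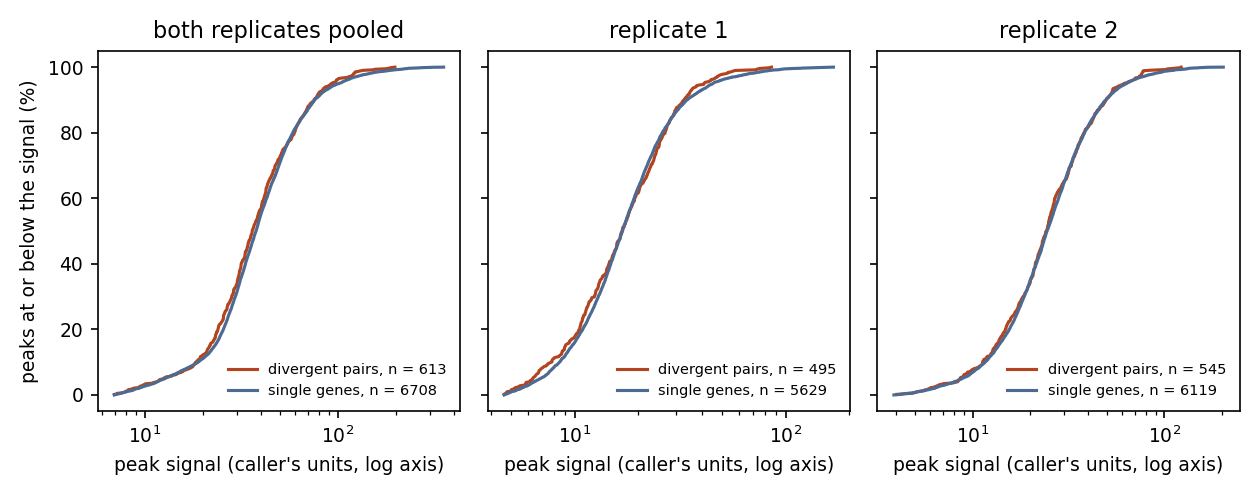
Cumulative percent of peaks by signal on a log axis, in the pooled data and in each replicate, for divergent pair peaks and single-gene peaks. The curves run close together in all 3 panels, with medians of 36.0 and 37.6 in the pooled data, and the single-gene curve reaches further right, to 352.6 against 197.2.

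Summits of pair peaks were somewhat less often matched in both replicates. The match asks for a summit within 100 bp, so it does not show that an unmatched replicate lacked a peak there. The Abhd8/Mrpl34 peak of 81.8, for example, had no match in replicate 1 but was in the conservative list. A summit within 100 bp was present in the relaxed lists of both replicates for 438 of 613 pair peaks (71.5%, 67.8 to 74.9), against 5155 of 6708 single-gene peaks (76.8%, 75.8 to 77.8), a difference of -5.40 points (-9.23 to -1.81). The conservative list, a stricter selection by the authors, held 64.9% of the pair peaks and 67.1% of the single-gene peaks, and this difference of -2.13 points (-6.15 to 1.72) includes 0. Within the pair peaks, both shares followed signal, which comes from the same 2 replicates and so is not independent of them. In the weakest quartile, with signals of 6.95 to 25.9, 37.7% were matched in both replicates and 20.8% were in the conservative list. In the strongest quartile, with signals of 52.5 to 197.2, the shares were 93.5% and 100%. At the 438 pair peaks matched in both replicates, 353 had the higher signal in replicate 2, with a median log2 ratio of replicate 2 to replicate 1 of 0.57. The 5155 matched single-gene peaks had a median of 0.54. The Spearman correlation between the replicates was 0.582 over the matched pair peaks, which share the 2 libraries and are no independent points.

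The widest replicate ratios are named with both values. Btf3l4/Txndc12 had a replicate 1 signal of 5.13 and a replicate 2 signal of 32.9 at 1 of its 2 peaks. Cenpq/Mmut had 6.54 in replicate 1 and 36.6 in replicate 2, and Ddx49/Cope 4.73 and 26.3 in the same order. Ratios the other way were found at 1 of the 3 peaks of Glyr1/Ubn1, with 24.5 in replicate 1 and 5.77 in replicate 2, at Tsacc/Cct3, with 25.07 and 5.998, and at 1 of the 3 peaks of Brca1/Nbr1, with 34.9 and 8.34. Of the other Glyr1/Ubn1 peaks, 1 was matched in replicate 2 only, at 29.9, and 1 in replicate 1 only, at 18.7. None of the 6 peaks with these ratios was in the conservative list. That list was made from the same replicates, so this is no separate check.

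**Figure D3:**
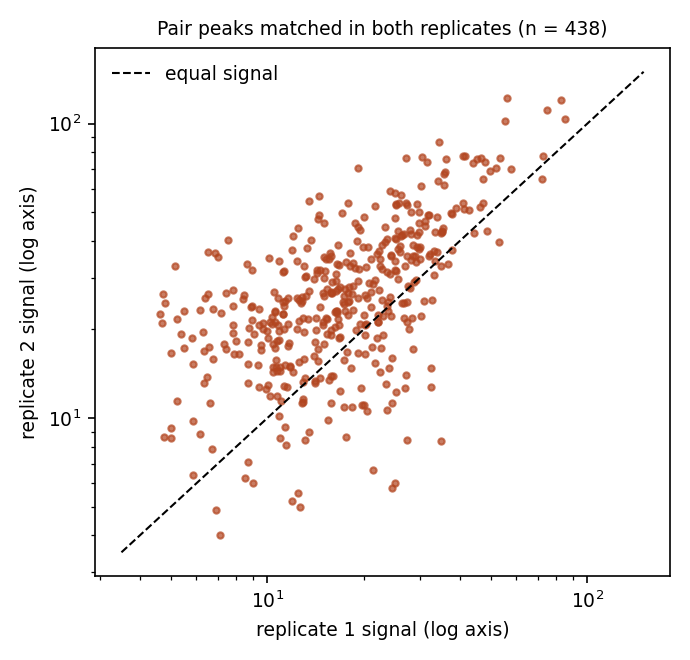
Signal of the 438 divergent pair peaks matched in both replicates, replicate 1 on the horizontal and replicate 2 on the vertical log axis, 1 point per peak; the dashed line marks equal signal. Of the points, 353 lie above the line, and the spread around it is narrower at high signal.

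Summits clustered at the shared promoter, and most lay downstream of 1 of the 2 starts, where most of the window set by the rule also lies. Inside a gene means here on the downstream side of its start, as gene ends were not used. Of the 613 summits, 170 (27.7%) lay between the starts, 199 (32.5%) on the side of the minus-strand gene and 244 (39.8%) on the side of the plus-strand gene. The nearer start was a median of 80 bp away, against 163 bp for single-gene peaks, and 54.8% of pair summits lay within 100 bp of it, against 37.8%. A site near a pair has 2 starts to be close to, and with a median gap of 101 bp little sequence lies upstream of both. The shares inside the genes and downstream of a start thus depend on the rule and the gap, and a preference for gene bodies was not tested. Of the pair summits 72.3% were downstream of the nearer start, against 48.4% of single-gene summits, and the share between the starts was 11.4% where the starts were 1 to 50 bp apart and 55.6% where they were 501 to 1000 bp apart. Peaks between the starts had a median signal of 41.5, those on the minus-strand gene's side 35.9 and those on the plus-strand gene's side 31.9. The peak interval, 340 bp at the median, covered both starts in 248 of 613 cases (40.5%). Exons and introns on this build were not used here.

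**Figure D4:**
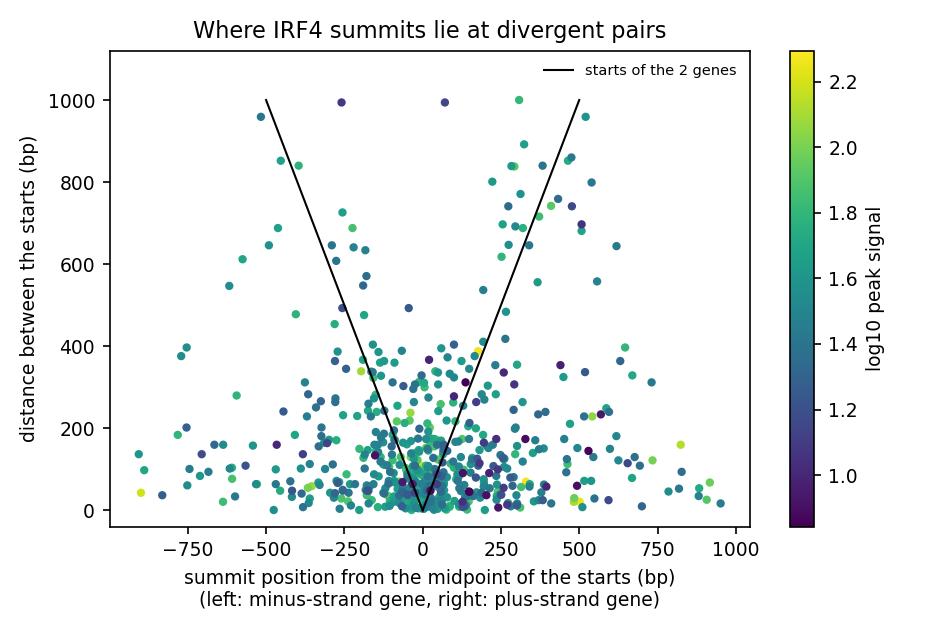
Each point is 1 of the 613 divergent pair peaks, placed by its summit's distance from the midpoint of the starts (bp, minus-strand gene to the left) and by the distance between the starts (bp); color gives log10 signal and the lines mark the starts. Points gather around the starts, 371 of them within 200 bp of the midpoint, and a minority lie far inside either gene.

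Several pairs carried more than 1 peak. When each peak was given to its nearest pair, 471 pairs had a peak, of which 350 had 1, 101 had 2, 19 had 3 and 1 had 4. The share with more than 1 was 25.7% of these 471 pairs and 23.5% of the 5271 genes that the single-gene peaks belong to, with an interval of the difference from -1.73 to 6.47 points. In the 101 pairs with 2 peaks the summits were a median of 264 bp apart (199 to 1400 bp), and the stronger had a median of 1.85 times the signal of the weaker. Peak intervals were 340 bp at the median, so many of these 2 peaks overlap and need not be separate sites. The 4 peaks were at Nfya/Oard1, where Nfya encodes a subunit of the CCAAT-binding factor NF-Y, with signals of 62.9, 40.2, 15.4 and 12.9. Only the first of them was matched in both replicates, at 19.2 in replicate 1 and 44.6 in replicate 2. All but the weakest were in the conservative list.

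The strongest pair peak lay at Ifit1bl2/Ifit1, a pair of interferon-induced genes of the IFIT family, whose products bind viral RNA. Its summit was at chr19:34640783, 44 bp inside Ifit1bl2, with starts 62 bp apart, and it ranked 1397 in the optimal list. The pooled signal was 197.2, with 83.0 in replicate 1 and 120.5 in replicate 2, and the window printed above holds 2 ISRE cores at separate places. The genes have close paralogues nearby, and how reads that fit several places were treated is not given in the sources used here. Among the 12 strongest pairs it was the only one with a gene of the interferon list.

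Next came Caskin2/Tsen54, of a scaffold protein and a subunit of the tRNA splicing endonuclease, with a signal of 187.9 (85.4 in replicate 1, 103.4 in replicate 2) at chr11:115814023, 295 bp inside Tsen54. Gm46977/Etv6 followed with 183.6 (75.1 and 111.3), 17 bp from the start of Etv6, an ETS-family repressor needed for blood cell formation, and its window holds an ISRE core. Each of these peaks was in the conservative list and far above the pair median in both replicates.

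Of the other 9 among the 12 strongest pairs, several had their peak well inside a gene. At Nek8/Tlcd1, of a kinase of the primary cilium and a membrane protein, the peak of 176.8 (56.2 in replicate 1, 122.4 in replicate 2) lay 491 bp inside Tlcd1, and a second of 69.0 lay 627 bp inside Nek8. At Ggps1/Arid4b, of an isoprenoid synthase and a chromatin protein, the peak of 155.5 (55.2 and 102.1) lay 878 bp inside Ggps1. At Eif3k/Map4k1 the peak of 134.6 (72.3 and 65.1) lay 744 bp inside Map4k1, which encodes a kinase that restrains antigen receptor signalling in lymphocytes, and 2 peaks of 30.1 and 19.9 lay within 63 bp of a start. The Ndufb1/Cpsf2 peak of 127.2 (46.4 and 76.2) lay 472 bp inside Cpsf2, a gene of the machinery that cleaves pre-mRNA before polyadenylation. At these 4 pairs the strongest peak lay 472 to 878 bp from the nearer start, although within 1 kb of both starts.

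At the remaining 5 pairs the strongest summit lay within 50 bp of a start. Ptcd1/Cpsf4, of a mitochondrial RNA-binding protein and another pre-mRNA cleavage factor, had 152.0 (72.9 in replicate 1, 77.7 in replicate 2). Srsf11/Lrrc40, with a splicing factor gene, had 130.7 (53.2 and 76.3). Rps6kb1/Tubd1, with the gene of the ribosomal S6 kinase, had 122.6 (49.6 and 69.1). Zfp672/Sh3bp5l had 122.6 (48.0 and 74.1), and Itpkc/Coq8b, of an inositol phosphate kinase and a coenzyme Q factor, had 122.0 (57.5 and 69.9). The last 2 windows, printed above, each hold an ETS site. Of the 23 pair peaks with a signal of 100 or more, all were in the conservative list and matched in both replicates, 16 lay within 100 bp of a start and 13 had an interval over both starts.

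At the other end, the pairs whose best peak was weakest were Nop16/Higd2a (8.08), Cep44/Fbxo8 (9.73), H2ac15/H2bc15 (13.8) and Haghl/Ccdc78 (13.9). Nop16 acts in ribosome assembly, Higd2a in respiratory chain assembly and Cep44 at the centriole. Their peaks were absent from the conservative list. The Nop16/Higd2a peak and the weaker of the 2 Haghl/Ccdc78 peaks, at 11.8, had no matched summit in replicate 1.

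IRF motifs were about as common at pair peaks as at single-gene peaks, whereas a strong ETS site was more common. An EICE or ISRE core lay in 9 of 286 pair windows (3.15%) and 64 of 2104 single-gene windows (3.04%). Pair peaks with one had a median signal of 66.8, against 40.6 without, and single-gene peaks 67.7 against 42.1. Of the 15 windowed pair peaks with a signal of 100 or more, 2 held one. The EICE alone was in 1.05% of pair windows, 1.38% of single-gene windows and 0.822% of windows of this length before all coding starts, and the ISRE core in 2.10%, 1.85% and 1.04% in that order. Peaks with a window lay nearer to a start and were stronger than those without, with medians of 41.1 against 32.1 among pair peaks, so the shares speak for the peaks at the start only. In whole promoters of 300 bases, the EICE was in 2.60% of genes of bound pairs and 2.66% of genes of unbound pairs. It was in 2.50% of bound single genes and 2.78% of unbound ones, so it was no more common at bound promoters. The ISRE core was in 4.58% of genes of bound pairs and 1.11% of genes of unbound pairs. At single genes its shares were 3.297% where bound and 3.559% where unbound.

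The ETS site was in 65 of 286 pair windows (22.7%) and 302 of 2104 single-gene windows (14.4%), a difference of 8.37 points (3.63 to 13.8), against 4.67% of windows before all starts. Pair summits lay nearer to starts, and the share fell with distance in both classes. Within 25 bp of the start it was 29.5% for pairs and 25.6% for single genes, from 26 to 75 bp 24.0% and 14.1%, and from 76 to 200 bp 12.3% and 10.2%. Of these 3 differences only that from 26 to 75 bp, 9.90 points (2.59 to 18.6), had an interval above 0. In whole promoters of 300 bases, it was present in 31.6% of genes of bound pairs and 20.6% of bound single genes, in 21.5% of genes of unbound pairs and 6.17% of unbound single genes, and in 12.1% of all promoters. Signal did not follow it, with medians of 39.4 at pair peaks with the site and 41.4 without.

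Of the other 13 motifs searched, 12 had intervals of the difference that include 0. Among them SP/KLF (GGGCGG) was in 34.3% of pair windows and 35.1% of single-gene windows, and NFY (CCAAT) in 19.2% and 15.5%, against 22.4% before all starts. The remaining one, a PU.1 site (GAGGAAGT), was in none of 286 pair windows, which allows a share of up to 1.05%, and in 35 of 2104 single-gene windows (1.66%). The difference of -1.66 points had an interval of -2.30 to -0.26, and the intervals are not adjusted for the 16 motifs. Before all starts the PU.1 site was in 0.926% of windows, which is within the limit of 1.05%. In whole promoters it was in 3.47% of genes of bound pairs and 3.46% of bound single genes. It was in 1.33% of genes of unbound pairs and 3.12% of unbound single genes. A match describes letters in a window and not a bound factor.

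**Figure D5:**
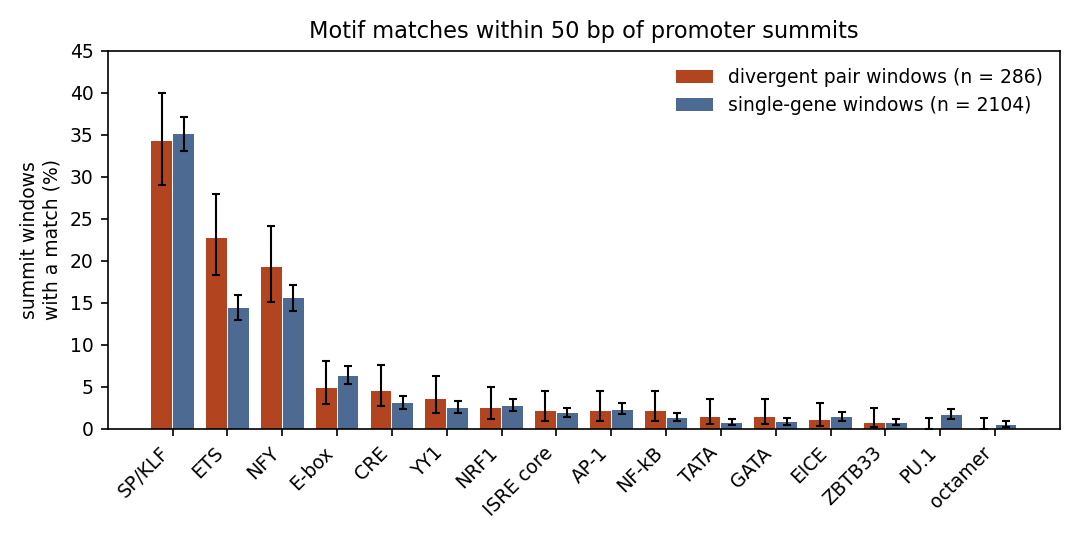
Percent of 101-base windows around promoter summits with a match to each of 16 motifs, for 286 divergent pair windows (left bars) and 2104 single-gene windows (right bars), with 95% Wilson intervals. The ETS bars stand at 22.7% and 14.4%, the ISRE core and EICE bars are low in both classes, and PU.1 has no pair bar.

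The share of genes in divergent pairs differed between the lists. Of all genes 6.95% lie in a pair. The share is 28.7% of the DNA repair and replication list, 29.5% of mitochondrial respiration and import, 26.9% of the mitochondrial ribosome and 24.4% of ribosome biogenesis and RNA processing. It is 32.5% of histone genes, 21.6% of aminoacyl-tRNA synthetases, 12.2% of cell cycle and mitosis and 9.21% of proteasome and ubiquitin genes. None of the 65 genes of the B cell list lies in a pair, while 47 of them (72.3%) had a summit as single genes. Of interferon response and antigen presentation 7 of 114 genes (6.14%) do, a share near that of all genes. The 613 peaks thus include none at a gene of the B cell list. Within the lists, single genes also carried a summit more often than the 27.8% of all single genes, at 53.4% to 72.3%, and in the 9 lists with pairs the shares of pairs and of single genes lay closer together than the 63.9% and 27.8% over all promoters. The lists describe the members and were not tested.

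In DNA repair and replication, 26 of 34 pairs had a summit (76.5%), against 49 of 75 single genes of the list (65.3%) and 63.9% of all pairs. The median signal was 35.6 over 36 pair peaks and 45.04 over 60 single-gene peaks. Rad51c/Tex14, with a gene of homologous recombination, had 120.0 (45.4 in replicate 1, 75.8 in replicate 2), 325 bp inside Rad51c. Brca1/Nbr1, of another recombination gene and a receptor for selective autophagy, had 3 peaks, the strongest between the starts at 119.0 (41.4 and 77.4). Lig4/Abhd13, with the ligase of non-homologous end joining, had 77.5 (28.1 and 49.99). At Mcm4/Prkdc, of a replicative helicase subunit and the kinase that end joining needs, the 2 peaks were of ordinary height, 40.3 and 28.7, both inside Prkdc. Atm/Npat, of the kinase that signals DNA breaks and a coactivator of histone genes, had 30.9 and 30.4, 1 peak inside each gene. Aimp2/Pms2, with a mismatch repair gene, had 32.8 and 29.7, and Rnaseh2a/Prdx2 30.1. These last 4 pairs lie below or near the median of 36.0.

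In RNA processing and ribosome biogenesis 39 of 49 pairs had a summit (79.6%), against 98 of 139 single genes of the list (70.5%), with median signals of 37.7 at pair peaks and 42.6 at single-gene peaks. Besides Srsf11/Lrrc40, the strongest pairs with a gene of this list, which lacks Cpsf2, Cpsf4 and Tsen54, were Noc4l/Ddx51, 2 genes of ribosome assembly, with 100.1 (47.2 in replicate 1, 53.9 in replicate 2), and Ints13/Fgfr1op2, with an Integrator subunit, with 92.01 (30.2 and 61.2), 883 bp inside Fgfr1op2. The mitochondrial ribosome had 15 of 20 pairs with a summit (75%), against 31 of 45 single genes (68.9%), and median signals of 45.3 at pair peaks and 44.1 at single-gene peaks. Mrpl13/Mtbp led with 116.3 (34.3 and 86.4), before Abhd8/Mrpl34 with 81.8 and Ptcd2/Mrps27 with 79.3 (25.9 and 53.6). The Abhd8/Mrpl34 peak was matched in replicate 2 only, at 60.3, but was in the conservative list.

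Mitochondrial respiration and import had 26 of 38 pairs with a summit (68.4%), against 50 of 81 single genes (61.7%). The median signal was 29.2 over 34 pair peaks, against 40.4 over 62 single-gene peaks of the list. Ndufb1/Cpsf2 led, followed by Ndufs3/Kbtbd4, with a complex I subunit gene, at 76.2 (29.8 in replicate 1, 46.1 in replicate 2) and Smtnl1/Timm10, with a chaperone of mitochondrial protein import, at 57.3 (12.0 and 41.4). Aminoacyl-tRNA synthetases had 5 of 8 pairs with a summit (62.5%), against 16 of 25 single genes (64.0%), among them S100pbp/Yars (59.4) and Ears2/Ubfd1 (44.4). Mrps12/Sars2, of a mitochondrial ribosomal protein and the mitochondrial seryl-tRNA synthetase, had 27.7 (10.7 and 14.4).

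Proteasome and ubiquitin genes had 10 of 14 pairs with a summit (71.4%), against 76 of 133 single genes (57.1%), led by Pcgf2/Psmb3 (64.9, with an ISRE core in its window, and starts 1000 bp apart), Pcid2/Cul4a (61.5) and Mrpl32/Psma2 (53.9). Sirt3/Psmd13, of a mitochondrial deacetylase and a proteasome lid subunit, had 36.4, matched in replicate 2 only at 38.5, but in the conservative list. Cell cycle and mitosis had 19 of 28 (67.9%), against 105 of 183 single genes (57.4%), led by Zfpl1/Cdca5, with the gene of the cohesin protector sororin, at 98.005 (46.1 in replicate 1, 51.9 in replicate 2), 673 bp inside Cdca5. Cenpj/Parp4, with a centriole assembly gene, had 97.5 (35.7 and 67.2) over 2 overlapping ISRE cores, and Cdk5/Slc4a2 had 79.6 (29.4 and 53.3). Histone pairs had the lowest share of the 9 lists with pairs, 6 of 13 (46.2%), below the 28 of 51 single histone genes (54.9%) and the 63.9% of all pairs. They were led by H2bc13/H2ac13 at 113.7, H2bc7/H2ac7 at 28.8 and H2ac12/H2bc12 at 27.2. Histone genes have near-identical copies, and reads could have been split between them, so these values are uncertain.

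Of the 5 pairs with a gene of interferon response or antigen presentation, 3 had a summit (60.0%), against 55 of 103 single genes of the list (53.4%). Besides Ifit1bl2/Ifit1 these were H2-T22/Gm6034, with a nonclassical class I gene of the major histocompatibility complex, with 40.5 (16.4 in replicate 1, 23.1 in replicate 2) over an ISRE core, and Bcl2l12/Irf3, with the gene of the interferon regulatory factor that responds to viral nucleic acids, with 28.8 and 20.7. Class I genes have close copies, which makes the H2-T22 value uncertain. Both Bcl2l12/Irf3 peaks were inside Irf3 and were matched in replicate 2 only, at 16.4 and 14.7, but both were in the conservative list. The median signal of the list was 34.6 over 4 pair peaks, against 59.8 over 76 single-gene peaks. Cgas/Mto1, with the sensor of cytosolic DNA, had no optimal summit.

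Psmb9/Tap1, which joins an immunoproteasome subunit to the peptide transporter of class I antigen presentation and is a well-known interferon-responsive pair, had none either. Its starts are 226 bp apart on chromosome 17. The relaxed pooled list gave it 2 summits, the higher at 30.1, with up to 15.4 in replicate 1 and 22.5 in replicate 2. That signal is within the range of the pair peaks, 6.95 to 197.2. The Tap1 promoter is printed because it covers the shared region up to the Psmb9 start, chr17:34187306-34187605, plus strand, in lower case throughout as it holds no match to the EICE, ISRE core or strong ETS site.
Tap1: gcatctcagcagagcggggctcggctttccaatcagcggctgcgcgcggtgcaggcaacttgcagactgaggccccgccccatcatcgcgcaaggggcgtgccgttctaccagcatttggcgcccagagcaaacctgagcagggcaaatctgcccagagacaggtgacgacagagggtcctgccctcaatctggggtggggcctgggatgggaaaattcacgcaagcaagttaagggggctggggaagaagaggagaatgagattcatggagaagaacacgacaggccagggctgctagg

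Wrn/Purg, of a RecQ helicase and a nucleic acid-binding protein, was likewise without an optimal summit, with a relaxed signal of up to 29.8 in the pooled list, 12.2 in replicate 1 and 18.3 in replicate 2. Of 24 pairs listed as divergent from general knowledge, 9 met the rule and 7 of these 9 had a summit. Another 7, such as Hspd1/Hspe1 of the mitochondrial chaperonin, have gene records that overlap head to head, by 95 bp there, and so fell outside the rule. With such overlaps of up to 1 kb taken in, there were 1172 pairs, and the difference in occupancy from single genes was 35.6 points (32.8 to 38.4).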

How the data were processed

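The authors deposited peak lists in narrowPeak format on mm10, per the descriptions deposited with the files: relaxed lists (1 per replicate and 1 pooled), and optimal and conservative lists made from these by the irreproducible discovery rate. Which peak caller, aligner and filters were used, and how many reads there were, is not stated in the sources at hand. The signal of each deposited peak is the authors' caller's value, of unstated scale, and was used to describe and rank peaks within a list. Pooling both replicates and the limit of 300000 lines in 2 relaxed lists can change which weak peaks appear. The mm9 list was not used, nor were 11 optimal peaks off chromosomes 1 to 19 and X.

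Summits were the start plus the deposited offset, in 1-based positions. Gene starts were the 5′ ends of RefSeq gene records (GRCm38.p6), 1 per gene. Strands came from the RefSeq promoter table for 17274 genes and from the GENCODE gene of the same name for 3649 or of a synonym for 395, and 21318 of 21631 genes got a start. Of the pairs, 164 (22.0%) had a strand from GENCODE. A gene's other starts are missed. Single genes have no other protein-coding start within 1 kb of their own, and single-gene peaks have no other within 1 kb of the summit, so the peaks belong to 5271 genes while 5263 single genes have a summit. Replicate signal was that of the nearest summit within 100 bp. Promoter sequence was found for 92.1% of pairs, at least 1 gene each, and 80.6% of single genes, and none was used on chromosome 18. Motifs were exact words on both strands.

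Log2 signal was compared by Welch intervals and shares by Newcombe intervals (Wilson for each share), all at 95%, over peaks or promoters. These are not replicates, and with 1 group of 2 replicates no p-value was computed. A limit from a count of 0 is 3 counts of the total. Python 3.11.15, numpy 2.4.6, scipy 1.17.1, pandas 2.3.3, statsmodels 0.14.6 and matplotlib 3.10.9 were used, and the classes and intervals were tested on simulated data.

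Pairs named are the 12 with the strongest peak, the 4 whose strongest peak was weakest, all textbook pairs that met the rule, every bound pair of the immune lists, the 3 strongest of each other list, the pairs with most peaks and the 3 widest replicate ratios each way. A pair that this takes is not reported here. The interferon list's unbound Cgas/Mto1 was added after its values were seen. The members and lists were chosen with earlier results of these data known, and list symbols for histones, cyclins and SMC genes were revised after the files had been read.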

Additional observations from a re-analysis of the deposited data

How the results depend on the processing

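The higher occupancy of divergent pairs than of single genes kept its direction, with an interval above 0, under all 12 alternatives, from 20.4 points among CpG-rich promoters to 38.4 points. Leaving out 1 replicate gave 36.6 and 38.4 points. The log2 signal difference kept its sign under all 13 alternatives, and its interval included 0 in 12 of them. With chromosome and distance to the nearer start in the fit it was -0.114 (-0.183 to -0.0459), past 0, and the cause was not tested. Leaving out 1 replicate gave -0.0463 and -0.0254. The lower share of pair peaks matched in both replicates kept an interval below 0 under 7 of 8 alternatives. With summits within 500 bp of the starts the difference was -3.89 points (-8.16 to 0.0528). This was over 491 pair peaks and 5398 single-gene peaks, and the cause of the change was not tested. The difference in the conservative list's share was on the same side under all 7 alternatives, and its interval included 0 in each of them. Alternative starts, overlapping starts and CpG-rich promoters were chosen after seeing the data. No paired analysis was possible because the 2 replicates form 1 group. The depth is unknown, so what it limits could not be computed.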
